A study of Mus musculus with 12 samples.

Results

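The effect of the *App* knock-in on hippocampal transcripts was measured here across both diets, by setting all 6 knock-in mice against all 6 wild-type mice with the diets weighted equally, and it covers all 12 of the 12 samples of the series. Each genotype was represented by 3 male mice on a regular control diet (RD) and 3 on a high-fat diet (HFD), giving the groups WT RD and App RD, and WT HFD and App HFD. The difference was the mean of the App RD and App HFD group means minus the mean of the WT RD and WT HFD group means, so that the average effect of diet cancelled. All mice were 18 months old and had received their diet for 12 months, starting at 6 months of age, and all were perfused with saline before the hippocampus was taken. Labelled App[NL-F/NL-F], the knock-in mice are homozygous for the Swedish (KM670/671NL) and Iberian (I716F) mutations in the endogenous *App* gene, together with a humanized Aβ sequence, and *App* is transcribed from its own promoter rather than from a transgene. The knock-in had been backcrossed onto C57BL/6J, and homozygous and wild-type offspring of heterozygous matings were then kept as separate inbred lines, so that the knock-in and any other difference between the lines cannot be told apart. Each mouse contributed 1 Affymetrix Mouse Gene 2.0 ST array, which gave log2 expression for 41345 transcript clusters. A cluster is a set of probes that reads 1 gene or transcript.

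In the hippocampus of mice that deposit Aβ, microglia, the resident macrophages of the brain, gather around plaques and take up amyloid. They do so in part through the lipid-sensing receptor TREM2 and its signalling adaptor TYROBP, and they exchange a resting program (*P2ry12*, *Cx3cr1*, *Tmem119*) for a plaque-associated program rich in lysosomal proteases, lipid-handling genes and chemokines. Astrocytes around plaques enlarge and raise intermediate filament genes such as *Gfap*. Because each value came from bulk tissue, more cells of a type and more RNA per cell cannot be told apart.

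A single gene, *Cst7*, rose with the genotype at an adjusted p under 0.05 from limma with Benjamini-Hochberg adjustment over all clusters, which is 1 of 41345 clusters or 0.00242% of those tested, and no cluster fell. *Cst7* encodes cystatin F, an inhibitor of lysosomal cysteine proteases made by immune cells. Its log2 expression ran from 5.01 to 5.10 in the 6 wild-type mice, with a median of 5.04, and from 5.94 to 6.47 in the 6 knock-in mice, with a median of 6.25. The genotypes were separated by a gap many times the spread of the wild-type mice, and the lowest knock-in mouse was an HFD-fed one. The log2 difference was 1.17 (standard error, SE, 0.09, 95% confidence interval 0.96 to 1.38, adjusted p = 0.00608), a 2.25-fold higher level, and an exact two-sided permutation test within diets gave p = 0.005, the smallest that its 400 assignments allow. The difference was 1.16 on the RD and 1.18 on the HFD, and neither value alone passed the threshold (adjusted p = 0.0673 and 0.0768). With the replicate number added to the limma model as a block, *Cst7* had an adjusted p = 0.0513 and no cluster was called. *Cst7* was a dim gene, with a mean log2 of 5.64 against the 6.64 that corresponds to an intensity of 100, and no detection call came with the values.

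**Figure D1:**
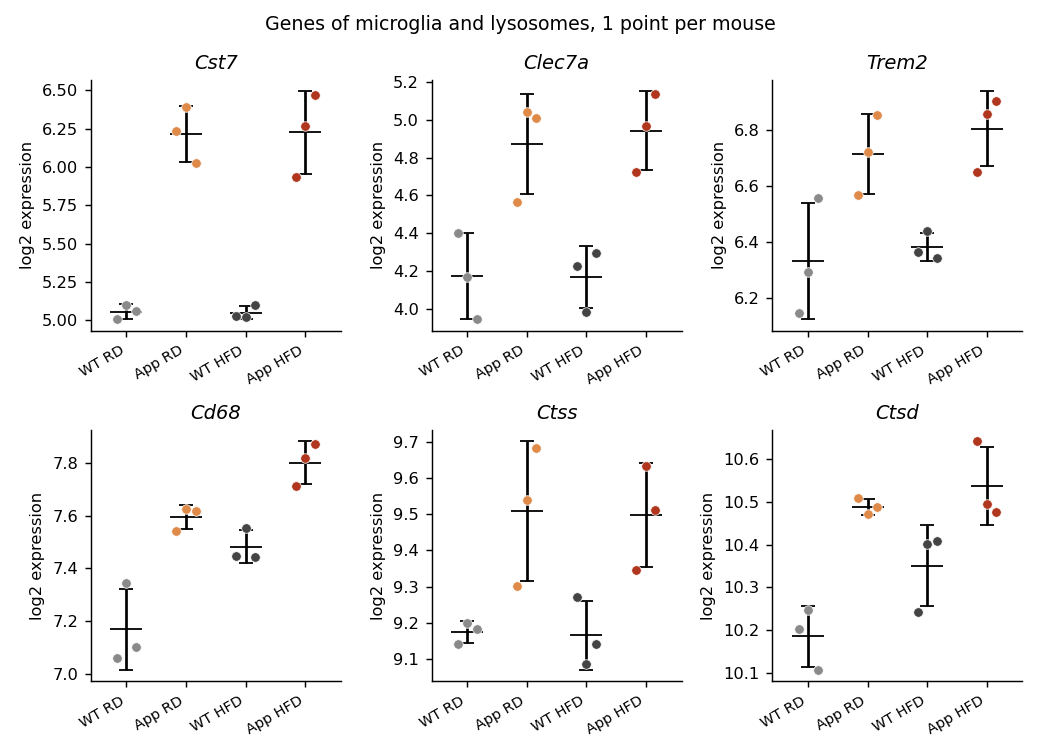
Log2 expression (vertical axes, each with its own range) of 6 genes of microglia and lysosomes in WT RD, App RD, WT HFD and App HFD mice. Points are single mice, and the horizontal bar and whiskers are the mean and SD of 3 mice; for *Cst7* all 6 wild-type mice lie at or under 5.10 and all 6 knock-in mice at or above 5.94.

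At an unadjusted p under 0.05, 1206 clusters were higher (2.92%) and 1467 lower (3.55%) in knock-in mice. Over the 22180 genes that could be named, each represented by its brightest cluster, 596 (2.69%) were higher and 689 (3.11%) lower at that level, 48.5% of differences were above 0 and the median log2 difference was -0.00337. The values of the genotypes did not overlap for 208 clusters (0.503%), with the knock-in mice on top for 101 (0.244%) and at the bottom for 107 (0.259%). Counted over named genes, those shares were 0.289% (64 genes, knock-in higher) and 0.234% (52 genes, knock-in lower). Every count of list members given with a p or an overlap is to be read against the shares over named genes. Bright clusters separated more often. Among the 9858 with a mean intensity of 100 or more, 0.538% were without overlap and higher and 0.456% lower. These are the closer shares for lists of mostly bright genes.

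**Figure D2:**
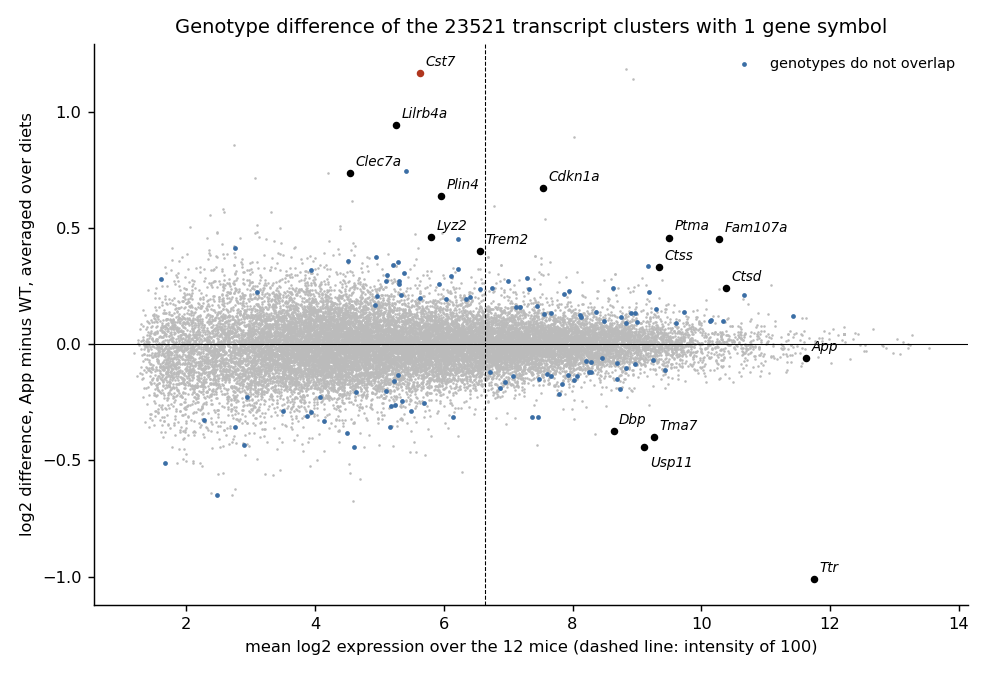
Log2 difference of knock-in minus wild-type mice, averaged over diets (vertical axis), against mean log2 expression over the 12 mice (horizontal axis), for the 23521 clusters paired with 1 gene symbol. Blue points are clusters whose genotypes do not overlap, black points are genes described in the text, the red point is *Cst7*, at a mean of 5.64 and a difference of 1.17, and the dashed line marks an intensity of 100.

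The plaque-associated microglia list, which holds *Cst7*, had the largest median difference among the microglia and astrocyte lists. Of its 33 measured genes, 30 were above 0, 16 were higher and 0 lower at an unadjusted p under 0.05, 7 had genotypes that did not overlap, and the median log2 difference was 0.20 against -0.00337 over all named genes. Only *Cst7* passed the adjusted threshold. The mean level of the list separated the genotypes mouse by mouse, with 6.60 to 6.71 on the log2 scale in wild-type and 6.81 to 6.97 in knock-in mice. The median was 0.16 on each diet. Among the 14 members with a mean intensity of 100 or more the median was 0.07, and *Cst7*, *Lilrb4a*, *Ccl3* and *Clec7a*, with the largest differences of the list, were all dimmer than that.

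The surface receptors of that program came next. *Clec7a*, which encodes the pattern-recognition receptor dectin-1, lay at 3.94, 4.20 and 4.40 (lowest, median, highest log2 expression) in wild-type mice and at 4.57, 4.99 and 5.14 in knock-in mice, with a log2 difference of 0.74 (SE 0.12, adjusted p = 0.231). *Trem2* lay at 6.14, 6.35 and 6.56 in wild-type mice and at 6.57, 6.79 and 6.91 in knock-in mice, with a difference of 0.40 (SE 0.08, adjusted p = 0.421). Neither receptor overlapped between the genotypes, although for *Trem2* the nearest wild-type and knock-in mice, both fed the RD, almost met. *Lilrb4a*, an inhibitory immunoglobulin-like receptor, had a difference of 0.95 (SE 0.16, adjusted p = 0.286), with wild-type mice from 4.18 to 5.28 and knock-in mice from 4.98 to 6.29. Here the ranges did overlap, and its level also differed between the diets within each genotype, with group means of 4.50 on the RD and 5.07 on the HFD in wild-type mice and of 5.37 and 6.09 in knock-in mice. *Itgax*, the integrin CD11c, and *Ccl3*, a chemokine, were picked out after their values were seen, and both were without overlap at 0.36 and 0.75. *Tyrobp*, the adaptor of TREM2, differed by 0.24.

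Secreted and lysosomal members of the list overlapped the receptors in the size of their differences. *Igf1*, an insulin-like growth factor, lay at 4.94 to 5.28 in wild-type and 5.33 to 5.59 in knock-in mice, a difference of 0.36 (SE 0.07, adjusted p = 0.381). *Lyz2*, lysozyme of myeloid cells, had a difference of 0.46 (SE 0.06, adjusted p = 0.150) that was uneven across diets, at 0.76 on the RD and 0.16 on the HFD. Its level was 5.26 ± 0.13 (SD, n = 3) in WT RD, 5.88 ± 0.10 in WT HFD, 6.03 ± 0.05 in App RD and 6.04 ± 0.07 in App HFD mice, so that only the RD-fed wild-type mice stood clearly apart. The difference between the diets in the genotype effect of *Lyz2*, -0.60 (SE 0.12), did not pass limma's threshold (adjusted p = 0.814). *Ctsd*, the aspartic protease cathepsin D, ran from 10.11 to 10.41 in wild-type and 10.47 to 10.64 in knock-in mice, with a difference of 0.24 (SE 0.06, adjusted p = 0.497). Several genes of the same program sat near 0, among them *Apoe* at 0.03, *Lpl*, a lipase, at -0.02, *Axl*, a receptor tyrosine kinase, at 0.03 and *Csf1*, a microglial growth factor, at 0.01.

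The 5 upstream windows shown were chosen because *Cst7* was the only called gene, and *Trem2*, *Fcrls*, *Ctsd* and *Gla* are microglial or lysosomal genes whose genotypes did not overlap and whose windows hold a motif of interest. They are the 250 bases before the start of each gene in RefSeq's GRCm38.p6, written 5′ to 3′ on the gene's strand. Capitals mark matches on either strand to any of 4 motifs. The PU.1 core, of a myeloid transcription factor, was searched as GAGGAAG. The E-box, bound by regulators of lysosomal genes among others, was searched as CACGTG. The CCAAT box and the TATA box, searched as TATAAA, are common parts of promoters.
Cst7, chr2:150570165-150570414, + strand: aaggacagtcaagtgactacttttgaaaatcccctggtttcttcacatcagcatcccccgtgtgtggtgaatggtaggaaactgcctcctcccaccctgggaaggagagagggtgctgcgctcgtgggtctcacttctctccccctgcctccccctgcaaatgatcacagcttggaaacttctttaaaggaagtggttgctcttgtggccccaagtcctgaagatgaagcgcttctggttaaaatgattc
Trem2, chr17:48346151-48346400, + strand: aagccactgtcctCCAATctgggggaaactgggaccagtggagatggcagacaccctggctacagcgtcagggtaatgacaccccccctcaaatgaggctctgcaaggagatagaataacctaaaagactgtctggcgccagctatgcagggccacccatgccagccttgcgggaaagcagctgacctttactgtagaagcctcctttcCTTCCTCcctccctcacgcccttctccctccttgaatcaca
Fcrls, chr3:87263525-87263774, - strand: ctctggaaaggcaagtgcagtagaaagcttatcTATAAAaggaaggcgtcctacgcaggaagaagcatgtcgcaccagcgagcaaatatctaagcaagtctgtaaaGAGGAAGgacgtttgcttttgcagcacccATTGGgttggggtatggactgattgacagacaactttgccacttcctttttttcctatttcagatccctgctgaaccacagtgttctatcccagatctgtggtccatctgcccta
Ctsd, chr7:142387828-142388077, - strand: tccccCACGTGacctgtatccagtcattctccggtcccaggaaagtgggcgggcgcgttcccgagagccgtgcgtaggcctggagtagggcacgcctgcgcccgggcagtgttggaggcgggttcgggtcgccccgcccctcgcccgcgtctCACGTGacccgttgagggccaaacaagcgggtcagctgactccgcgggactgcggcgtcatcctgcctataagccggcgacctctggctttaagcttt
Gla, chrX:134601006-134601255, - strand: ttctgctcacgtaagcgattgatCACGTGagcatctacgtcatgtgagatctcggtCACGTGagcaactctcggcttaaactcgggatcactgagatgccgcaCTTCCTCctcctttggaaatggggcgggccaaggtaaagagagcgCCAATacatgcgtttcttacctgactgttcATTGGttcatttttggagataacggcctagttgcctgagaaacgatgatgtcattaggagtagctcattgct
None of the 4 motifs stood in the *Cst7* window in the exact letters searched, and shorter or looser forms were not searched. *Trem2* had the PU.1 core on the opposite strand, from 41 to 35 bases before its start, and *Fcrls* and *Gla* had it from 144 and 147 bases before theirs. *Ctsd* had the E-box at 245 and 98 bases and *Gla* at 227 and 194. Of 26794 genes with a window of this length, 12.1% held the PU.1 core, 6.92% the E-box, 37.7% the CCAAT box and 14.4% the TATA box. The PU.1 core was found for 4 of the 26 plaque-associated genes with a window (15.4%), 5 of 16 homeostatic microglia genes (31.2%) and 9 of 21 surface receptor genes (42.9%), but also for 1 of 9 complement genes (11.1%), 0 of 11 antigen-presentation genes (0%) and 4 of 12 endothelial genes (33.3%). These matches describe letters in a window and not sites in use.

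Markers of microglia at rest had a median log2 difference of 0.07. Of 20 measured homeostatic genes, 15 were above 0, and 6 were higher and 0 lower at an unadjusted p under 0.05. *P2ry12*, a purinergic receptor, differed by 0.08, *Tmem119* by 0.13, *Cx3cr1*, the fractalkine receptor, by 0.07 and *Aif1*, which encodes IBA1, by -0.04. *Fcrls*, an Fc receptor-like gene of microglia, was the member without overlap, at 6.75 to 6.98 in wild-type and 7.005 to 7.25 in knock-in mice, with a difference of 0.27 (SE 0.06, adjusted p = 0.454). The adhesion ligand *Selplg* differed by 0.23 (-0.04, SE 0.14, in its second cluster), the phagocytic receptor *Mertk* by 0.22 and the lectin *Siglech* by 0.20. Mean levels of the list ran from 6.84 to 6.94 in wild-type and from 6.87 to 7.07 in knock-in mice, and unlike those of the plaque-associated list they overlapped.

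Genes of phagocytosis and lysosomes lay almost uniformly above 0. Of 25 measured, 24 were above 0, 6 were higher and 0 lower at an unadjusted p under 0.05, with a median of 0.14 (0.15 on the RD and 0.14 on the HFD). *Ctss*, cathepsin S of microglia, lay at 9.08, 9.16 and 9.27 in wild-type mice and at 9.30, 9.53 and 9.68 in knock-in mice, with a log2 difference of 0.33 (SE 0.08, adjusted p = 0.497) that was 0.33 on each diet. *Cd68*, a lysosomal glycoprotein of phagocytes, differed by 0.37 (SE 0.06, adjusted p = 0.286), and its highest wild-type mouse, at 7.55, reached just past its lowest knock-in mouse, at 7.54. Tested among the 9858 clusters with a mean intensity of 100 or more alone, *Cd68* had an adjusted p = 0.0253. The membrane protein gene *Laptm5* differed by 0.25, the asparagine endopeptidase gene *Lgmn* by 0.19 and *Ctsh*, another cathepsin, by 0.19. Outside the list, *Gla*, which encodes the lysosomal α-galactosidase A, had no overlap, at 6.48 to 6.75 in wild-type and 6.80 to 6.94 in knock-in mice (difference 0.24, SE 0.05, adjusted p = 0.454).

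Complement genes differed in both directions. The chains of C1q, which starts the classical pathway, were all higher at an unadjusted p under 0.05, by log2 differences of 0.26 for *C1qa*, 0.24 for *C1qb* and 0.14 for *C1qc*. *C1qb* lay at 8.55, 8.74 and 8.87 in wild-type and 8.84, 8.97 and 9.10 in knock-in mice (SE 0.05, adjusted p = 0.383, and 0.0363 among clusters of 100 or more), with 5 of 6 knock-in mice above every wild-type mouse. *C3ar1*, the receptor for C3a, differed by 0.21 without overlap, and *C4b* by 0.31. *C2*, the protease that acts after C4, differed by -0.25 and was very dim, at a mean log2 of 3.61. *C3ar1* was dim as well, at 4.97. In all, 5 of 15 were higher and 1 lower.

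Fc receptors and other signalling receptors gave 5 higher and 1 lower of 24, with a median of 0.09. *Ly86*, which encodes MD-1, and its partner *Cd180* differed by 0.36 and 0.28, the common γ chain of Fc receptors *Fcer1g* by 0.20 and the inhibitory receptor *Fcgr2b* by 0.32. *Plcg2*, the phospholipase that acts after TREM2, was the lower member, at -0.16. *Spi1*, which encodes PU.1, differed by 0.07.

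Inflammatory genes gave few differences outside the chemokines of the plaque-associated list. In that list *Ccl3*, *Ccl6* and *Ccl4* differed by 0.75, 0.30 and 0.27, each at an unadjusted p under 0.05, and their values were read after they were seen. None of the 22 other chemokine, cytokine and inflammasome genes had an unadjusted p under 0.05 in either direction, with *Tnf* at 0.08, *Il1b* at 0.10 and *Nlrp3* at 0.01. These 3 were dim, at mean log2 levels of 4.09, 3.49 and 3.86, and a difference could be missed there. A mean intensity of 100 was reached by 3 of the 22, by 3 of 20 interferon-response genes and by 1 of 15 antigen-presentation genes. Of 20 interferon-response genes 2 were higher (*Xaf1* at 0.25 and *Usp18* at 0.25) and 0 lower, and of 15 antigen-presentation genes 0 were higher and 2 lower, the immunoproteasome gene *Psmb9* and the class I gene *H2-Q4*, both at -0.32, though a second, dimmer *H2-Q4* cluster gave 0.19 (SE 0.13). *B2m*, the light chain of class I molecules, is in the plaque-associated list and differed by 0.30, a value read after it was seen.

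Among astrocyte genes, *Gfap* lay at 9.15, 9.25 and 9.39 in wild-type and 9.39, 9.51 and 9.74 in knock-in mice, with 5 of 6 knock-in mice above every wild-type mouse and a log2 difference of 0.28 (SE 0.06, adjusted p = 0.493). The intermediate filament gene *Vim* differed by 0.19 (0.07, SE 0.06, in its second cluster) and the hyaluronan receptor gene *Cd44* by 0.26. *Amigo2*, an adhesion gene of one reactive program, differed by -0.22. Of 21 reactive astrocyte genes, 4 were higher and 1 lower at an unadjusted p under 0.05, with a median of 0.12 that was 0.02 on the RD and 0.12 on the HFD. Homeostatic astrocyte genes gave 1 higher of 21, *Glul* (glutamine synthetase), which did not overlap at 11.32 to 11.42 against 11.44 to 11.54, a difference of 0.12 (SE 0.05, adjusted p = 0.736). Yet 18 of these 21 were above 0, as were 16 of the 21 reactive genes. The homeostatic median was 0.05 (0.07 on the RD and 0.05 on the HFD). Mean levels of the homeostatic list were 8.85 to 8.94 in wild-type and 8.92 to 8.97 in knock-in mice.

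**Figure D3:**
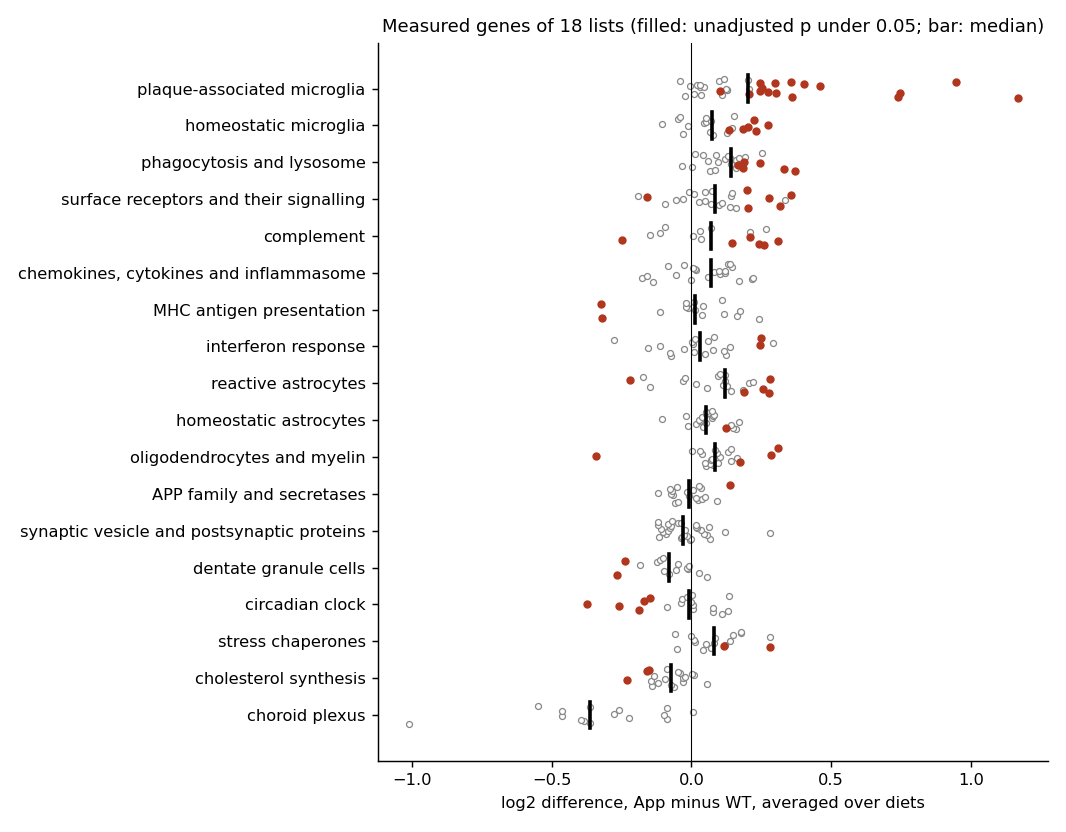
Log2 difference of knock-in minus wild-type mice, averaged over diets (horizontal axis), for every measured gene of 18 lists (rows). Filled points have an unadjusted p under 0.05, open points do not, and the black bar is the list's median, which is 0.20 for plaque-associated microglia and -0.36 for choroid plexus.

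Of 21 oligodendrocyte genes 20 were above 0, with a median of 0.08, 3 higher and 1 lower at an unadjusted p under 0.05. The cytoskeletal gene *Ermn* differed by 0.29, the myelin protein gene *Mobp* by 0.17 and *Opalin*, another myelin gene, by -0.34, and the third of the higher members, *C4b*, also stands in the complement list. None of 30 synaptic genes had an unadjusted p under 0.05, and their median was -0.03. Dentate granule cell genes were below 0 for 13 of 15, with *C1ql2*, a synaptic organizer, at -0.27 and the kinase gene *Plk5* at -0.24 (median -0.08, which was -0.19 on the RD and -0.01 on the HFD). Mouse 1 of App RD had the lowest dentate list mean (7.03), oligodendrocyte list mean (7.89), ependymal list mean (4.63) and choroid plexus list mean (5.08) of the 12 mice. Without that mouse *Opalin* differed by -0.20 and the dentate median was -0.04, and *Cst7* was still the one called cluster.

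Markers of tissue around the hippocampus varied widely from mouse to mouse. Choroid plexus genes lay below 0 for 14 of 15, with a median of -0.36 (0.01 on the RD and -0.63 on the HFD), yet 0 had an unadjusted p under 0.05. Ependymal genes, of the ventricle lining, were below 0 for 9 of 9 (median -0.12), and *Fam183b* and *Meig1*, at -0.28 and -0.27, were lower at that level. With single mice left out the choroid plexus median ran from -0.59 (without mouse 1 of WT HFD) to -0.02 and the ependymal one from -0.21 (without mouse 3 of App RD) to -0.02, both nearest 0 without mouse 1 of App RD. Meningeal genes were above 0 for 14 of 14 with a median of 0.08, and 0 had an unadjusted p under 0.05. That median was 0.16 on the RD and -0.07 on the HFD, so the diets went opposite ways. Without mouse 3 of App HFD the median over both diets was -0.04. Choroid plexus list means ran from 5.28 to 7.06 in wild-type and from 5.08 to 7.22 in knock-in mice. *Ttr*, transthyretin of that epithelium, ran from 9.13 to 13.28 in wild-type and 8.67 to 13.24 in knock-in mice, and its log2 difference of -1.01 had a standard error of 1.02 and ran from -1.69 (without mouse 1 of WT HFD) to -0.35 (without mouse 1 of App RD) when single mice were left out. Meningeal list means were 6.02 to 6.66 and 6.14 to 6.94, endothelial ones 6.47 to 7.07 and 6.80 to 6.86, and mural ones 6.13 to 6.55 and 6.29 to 6.53, in wild-type and knock-in mice. Their part in the microglial differences was not tested. The hippocampal markers *Prox1* (dentate granule cells) and *Wfs1* (CA pyramidal cells) differed by 0.06 and 0.04, *Prox1* being 1 of the 2 dentate genes above 0. Of 13 CA pyramidal genes 8 were above 0, with a median of 0.02.

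The gene that carries the knock-in differed little. *App* lay at 11.62, 11.66 and 11.70 in wild-type and 11.57, 11.59 and 11.64 in knock-in mice, a log2 difference of -0.06 (SE 0.04, 95% confidence interval -0.16 to 0.04, adjusted p = 0.866). In 5 of the 6 knock-in mice it was under every wild-type mouse. The exact two-sided permutation test gave p = 0.015 and limma p = 0.214, both unadjusted for the number of genes. The mutations change codons and leave the promoter as it is, so the level of *App* does not check the labels. Of 19 genes of the APP family and the secretases, 1 was higher and 0 lower at an unadjusted p under 0.05, *Gga3*, a trafficking adaptor, at 0.14, with *Bace1*, the β secretase gene, at 0.02 and *Aplp2*, an *App* relative, at 0.09. Of 58 genes within 5 Mb of *App*, 0 were higher and 1 lower at that level, *Tiam1*, an exchange factor for Rac, at -0.15. Just 8 of the 58, *Tiam1* among them, had a mean intensity of 100 or more, so most were too dim to show a difference well. Chromosome 16, which carries *App*, had 34 of 703 genes at that level (4.84%), inside the range of 4.44% to 6.82% over the autosomes.

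Outside the glial lists, the bright named genes without overlap are of varied function. Over all clusters with a mean intensity of 100 or more, members of the glial lists included, 98 had no overlap (0.994% of 9858). Of these, 53 were higher (0.538%) and 45 lower (0.456%) in knock-in mice, and 35 and 29 were paired with 1 gene symbol. *Ptma*, which encodes the nuclear protein prothymosin α, lay at 9.14, 9.26 and 9.41 in wild-type and 9.62, 9.71 and 9.85 in knock-in mice, a log2 difference of 0.46 (SE 0.06, adjusted p = 0.150). *Tma7*, a small gene named for a translation machinery protein of yeast, lay at 9.37, 9.48 and 9.54 in wild-type and 9.02, 9.08 and 9.11 in knock-in mice, a difference of -0.40 (SE 0.05, adjusted p = 0.150). Both passed when just the clusters of 100 or more were tested (adjusted p = 0.0148 and 0.00254) and when the spread was moderated with an intensity trend (adjusted p = 0.0203 and 0.00213). Of 22 alternative settings, *Ptma* passed in 3 and *Tma7* in 4. Neither passed with any single mouse left out, at limma adjusted p of 0.195 to 0.446 and 0.164 to 0.392. A second, dimmer *Tma7* cluster had a difference of -0.04 (SE 0.08), so the clusters of this gene disagreed. *Ptma* has many processed copies in the mouse genome, and a probe that matches both cannot tell them apart.

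*Fam107a*, an actin-associated gene of astrocytes and neurons, lay at 9.87 to 10.28 and 10.31 to 10.71 in wild-type and knock-in mice, a log2 difference of 0.46 (SE 0.09, adjusted p = 0.408), while its second cluster gave 0.10 (SE 0.09). The tetraspanin gene *Tspan31* differed by 0.34 (SE 0.06, adjusted p = 0.235), the serine protease gene *Htra1* by 0.23, the transcriptional inhibitor *Id2* by 0.22 and the adiponectin receptor gene *Adipor2* by 0.22. *Rida*, a deaminase gene, and *Tstd3* both differed by 0.24. On the lower side stood *Usp11*, a deubiquitinase gene of the X chromosome, at 9.005 to 9.77 in wild-type and 8.70 to 8.99 in knock-in mice, a difference of -0.44 (SE 0.13, adjusted p = 0.616) in which the wild-type mice were the more scattered. *Tmem39b* differed by -0.31, the zinc finger gene *Klf16* by -0.31, *Agfg2* by -0.21, the arginine methyltransferase gene *Prmt1* by -0.19, *Atxn7l1* by -0.19, the mitochondrial iron carrier gene *Slc25a28* by -0.17, the palmitoyltransferase gene *Zdhhc8* by -0.16 and *Tnrc6c*, of microRNA silencing, by -0.15. Other clusters of *Atxn7l1* gave 0.03 and -0.05.

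**Figure D4:**
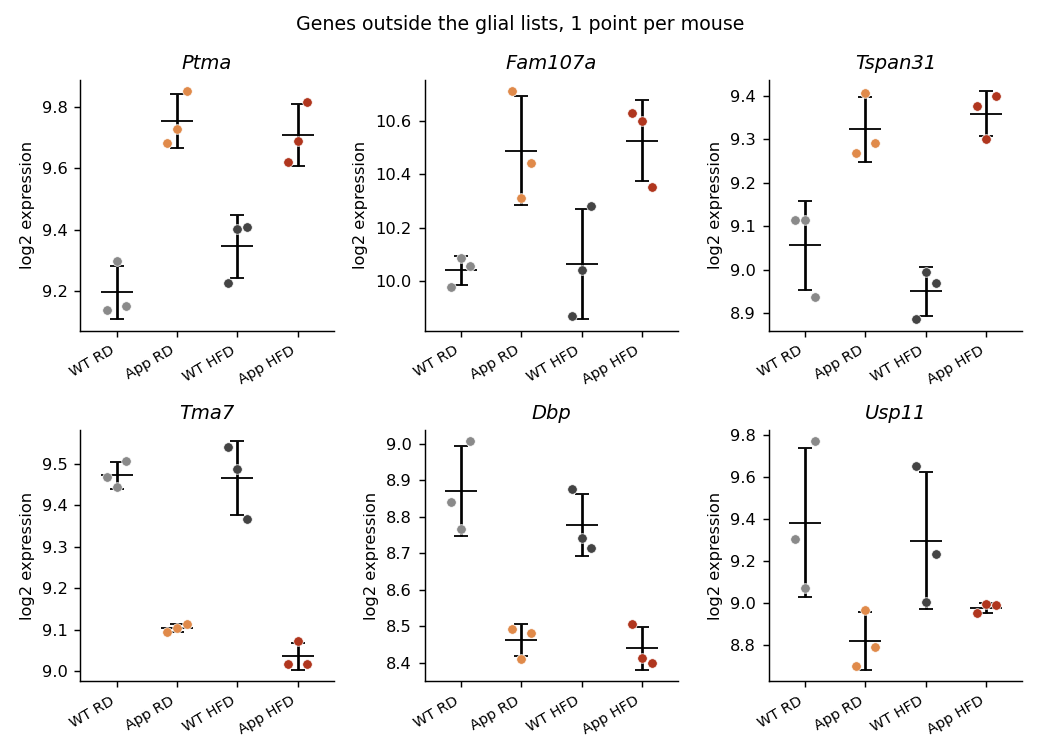
Log2 expression (vertical axes, each with its own range) of 6 bright genes outside the glial lists in WT RD, App RD, WT HFD and App HFD mice. Points are single mice and the horizontal bar and whiskers are the mean and SD of 3 mice; the 6 knock-in mice lie above the 6 wild-type mice for *Ptma*, *Fam107a* and *Tspan31* and under them for *Tma7*, *Dbp* and *Usp11*.

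Of 18 circadian genes, 0 were higher and 5 lower at an unadjusted p under 0.05, and 2 of these had no overlap. *Dbp*, a transcription factor driven by the clock, lay at 8.71, 8.80 and 9.01 in wild-type and 8.399, 8.45 and 8.51 in knock-in mice, a log2 difference of -0.37 (SE 0.06, adjusted p = 0.218, and 0.0223 among clusters of 100 or more). *Nr1d1*, which encodes REV-ERBα, differed by -0.26, the period gene *Per1* by -0.19, *Ciart* by -0.17 and *Bhlhe41*, a repressor of the clock, by -0.15 without overlap. The core activators *Arntl* and *Clock* were at 0.11 and 0.08, and the median of the list was -0.01. The hour at which each mouse was killed was not found in the labels or methods, and its part in these values was not tested.

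Few single genes of stress and activity differed at an unadjusted p under 0.05. Above 0 were 15 of 18 stress chaperones (median 0.08) and 14 of 18 glucocorticoid-responsive genes (median 0.05). For immediate early genes this was 9 of 20 (median -0.02). Of 18 stress chaperones 2 were higher and 0 lower at an unadjusted p under 0.05, *Hspa5*, the endoplasmic reticulum chaperone BiP, at 0.28 on both diets, and *Hsp90aa1* at 0.12. Of 18 glucocorticoid-responsive genes 3 were higher and 1 lower, with the cell cycle inhibitor *Cdkn1a* at 0.67 (SE 0.21, adjusted p = 0.654), the lipid droplet gene *Plin4* at 0.64 (SE 0.20, adjusted p = 0.620) and *Fkbp5*, a usual reporter of that response, at 0.04. The ranges of *Cdkn1a* and *Plin4* overlapped between the genotypes. Of 20 immediate early genes 1 was higher, the phosphatase gene *Dusp1* at 0.30, and 3 lower, *Egr2* at -0.40, *Nr4a3* at -0.24 and *Junb* at -0.19. *Egr2* was at -0.10 on the RD and -0.69 on the HFD.

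Cholesterol synthesis genes lay below 0 for 16 of 19, with a median of -0.07, and 0 were higher and 3 lower at an unadjusted p under 0.05. These were *Lss*, which encodes lanosterol synthase, at -0.23, the feedback regulator *Insig1* at -0.16, and *Cyp46a1*, which removes cholesterol from neurons by hydroxylation, at -0.15. Of 24 genes of insulin and IGF signalling 2 were higher, *Igf1* and *Adipor2*, and 1 lower, the insulin receptor substrate gene *Irs1*, at -0.15, whose second cluster gave 0.06 (SE 0.12). Of 24 genes of oxidative stress defence 0 were higher and 0 lower.

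The RD and HFD comparisons use different mice, so each diet can be read beside the other. Called clusters numbered 0 (0%) on the RD, 0 (0%) on the HFD and 0 (0%) for the difference between the diets, with 2555 (6.18%), 2197 (5.31%) and 2054 (4.97%) at an unadjusted p under 0.05 from limma. Among the 9749 distinct clusters with a mean intensity of 100 or more, 450 had an unadjusted p under 0.05 on the RD, and 324 of these (72%) had the same direction on the HFD, against 56.5% of all bright clusters. Chosen on the HFD instead, 302 of 428 (70.6%) had the same direction on the RD. The share was nearer its background elsewhere. Over all clusters it was 55.1% chosen on the RD and 57.8% chosen on the HFD, against 52.6%, and over named genes it was 61.3% and 62.1%, against 53.9%. Across the bright clusters, which are not independent replicates, the differences on the RD and the HFD correlated at a Pearson r of 0.289 and a Spearman rho of 0.197, and across all 41345 clusters at 0.0505 and 0.055. The moderated spread was shared by both comparisons, which affects the p-values and not the directions.

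Of the 22180 named genes, 1128 had an unadjusted p under 0.05 from limma on the RD and 979 on the HFD. On both diets, 95 passed in the same direction and 23 in opposite directions. Of the 95, 52 were higher and 43 lower in knock-in mice. No overlap was seen for 45 of them, a count that choosing genes by both diets favours by construction. The higher ones included *Cst7*, *Lilrb4a*, *Ccl3*, *Clec7a*, *Trem2*, *Cd68*, *Ctss*, *C1qa*, *C1qb*, *Fcer1g*, *Gfap* and *Hspa5*, and the lower ones *Tma7*, *Dbp*, *Klf16*, *Agfg2* and *Slc25a28*. These were picked from a mixed set that also held very dim genes outside the lists. Examples are *Tcl1b2*, *Mrgprb4* and *Olfr1391* among the higher ones, at mean log2 levels of 4.57, 3.09 and 2.75. Among the lower ones were *Fbxw20*, *Olfr1512* and *Tas2r103*, at 2.49, 2.38 and 1.88. *Clec7a* differed by 0.70 on the RD and 0.78 on the HFD, *Trem2* by 0.38 and 0.42, and *Fam107a* by 0.45 and 0.46. *Plin4* was less even, at 0.37 and 0.91, but its difference between the diets of 0.54 had a standard error of 0.39.

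**Figure D5:**
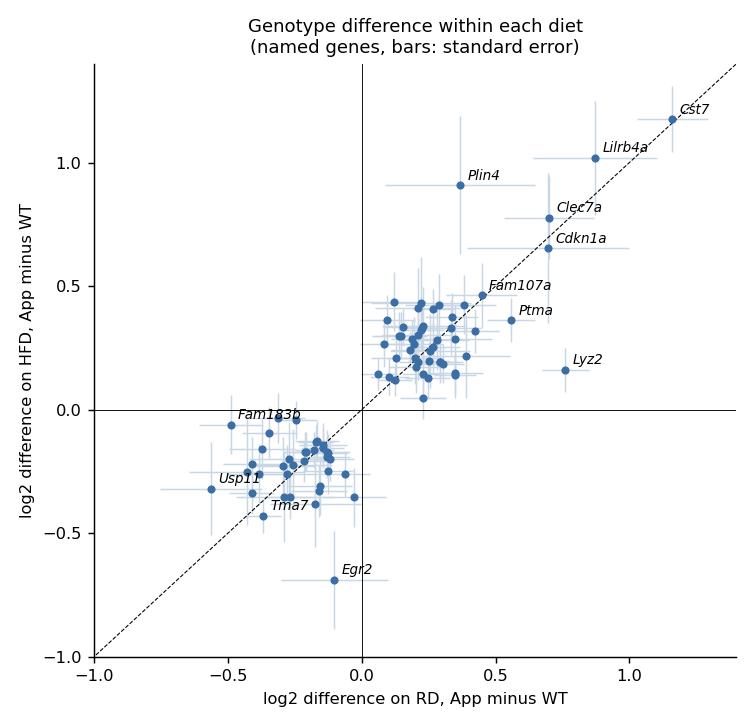
Log2 difference of knock-in minus wild-type mice on the HFD (vertical axis) against that on the RD (horizontal axis) for the described genes with an unadjusted p under 0.05 over both diets. Bars are standard errors, the dashed line marks equal differences, and *Cst7* lies at 1.16 and 1.18; the genes were chosen on the average of both axes.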

How the data were processed

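Total RNA from 12 hippocampi was labelled with biotin and hybridised to Affymetrix Mouse Gene 2.0 ST arrays. The authors imported the scans into Transcriptome Analysis Console 4.0 and deposited gene-level log2 values per transcript cluster. For summarisation and normalization the sources used here give no method. The values were used as deposited. Groups came from the sample labels, with 0 unmapped columns. Between 23.6% and 24.3% of clusters of an array lay at an intensity of 100 or more, arrays correlated at 0.982 to 0.988, and the number of arrays limits precision.

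One limma 3.58.1 model of the 4 group means (R 4.3.3, lmFit and eBayes) covered all 41345 clusters, p-values were adjusted by Benjamini-Hochberg over all of them, and an adjusted p under 0.05 was called. Single genes were also tested by exact permutation within diet over 400 assignments. The fit was tested on simulated data. The platform annotation paired 23521 clusters with 1 symbol, 1820 with several and 16004 with none, and a gene was represented by its brightest cluster with 1 symbol. The 33 lists held 652 genes, of which 594 were measured, and 10 gene families and the neighbours of *App* were added. Named genes were the called ones, up to 12 rises and 12 falls with a mean of 100 or more, an unadjusted p under 0.05 and no overlap, *App*, and up to 4 members of each list with the smallest p; a few others are named by role or value. The members, lists and tests were chosen with earlier results of these data known. Alternatives were quantile normalization, median centring, a minimum intensity of 100, clusters with 1 symbol, an intensity trend, array weights, genotype alone, additive diet, the replicate number as a block, the mean over all clusters of a gene and leaving out each mouse.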

Additional observations from a re-analysis of the deposited data

Results flagged for a closer look

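Of 87 described genes, the 6 mice of each genotype, both diets together, were screened with Dixon's ratio, the gap next to the extreme mouse over the whole range, at its 95% critical value for 6 samples. A mouse stood apart 17 times in 174 groups, where chance gives about 1 in 20, and diet was not removed before the screen. Mouse 1 of App RD was the lowest knock-in mouse for *Opalin* (ratio 0.778, log2 expression 6.09 against 6.85 for the next), *Tmem39b* (0.773), *Ermn* (0.678) and *Siglech* (0.629), and mouse 2 of App RD for *H2-Q4* (0.687). Mouse 2 of App HFD was the highest knock-in mouse for *Htra1* (0.701), *Usp18* (0.682), *C4b* (0.634) and *Adipor2* (0.629), and mouse 1 of App HFD for *Ctsd* (0.782) and *Nr1d1* (0.637). Mouse 3 of App HFD was the lowest for *Tstd3* (0.668) and the highest for *Ctsh* (0.63). Among wild-type mice, mouse 3 of WT HFD was the highest for *Zdhhc8* (0.85) and the lowest for *Htra1* (0.741), mouse 3 of WT RD the highest for *Atxn7l1* (0.638) and mouse 1 of WT RD the lowest for *Ctsh* (0.694). No mouse stood apart for *Cst7*, and no gene of the 87 had opposite genotype effects in every mouse of the 2 diets. The check for opposite effects could not decide whether such genes exist. Apart from *App*, the screened genes were chosen by an unadjusted p under 0.05 over both diets, and opposite effects of similar size cancel in that average.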

How the results depend on the processing

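*Cst7* was called in 20 of the 21 settings that tested it, and its log2 difference ran from 1.11 to 1.24. Calls over both diets numbered 12 (10 higher, 2 lower, among them *Ptma*, *Tma7*, *Dbp*, *Tspan31*, *Cd68* and *C1qb*, with *Cst7* too dim to enter) among clusters of 100 or more, 5 among clusters with 1 symbol, 3 with an intensity trend and robust spread, 2 with genotype alone and 1 with quantile normalization, median centring, array weights, additive diet or, chosen after seeing the data, identical clusters counted once. The labels do not say whether the replicate numbers pair the mice. Deviations of same-numbered mice of different groups correlated at an r of -0.00217 to 0.105 over 18 pairs (median 0.0259). Those of differently numbered mice correlated at -0.0795 to 0.061 over 36 pairs (median -0.0224). Of 12 arrays, 6 correlated best with their own number. The first principal component (13.1% of the variance) was lowest in the 4 mice numbered 1. With the replicate block 0 clusters were called and 2916 had an unadjusted p under 0.05 (*Cst7* adjusted p = 0.0513). Leaving out 1 mouse gave 1 to 6 calls over both diets (6 without mouse 2 of WT HFD), 0 to 1 on the RD and 0 to 2 on the HFD, and 290 to 385 clusters without overlap, a count that grows by construction with fewer mice. On the RD there were 4 calls among clusters with 1 symbol. On the HFD there was 1 call among clusters of 100 or more (*Tma7*), 4 among clusters with 1 symbol and 2 with the intensity trend. The difference between diets gave 2 calls among clusters with 1 symbol. Clusters without overlap numbered 98 among those of 100 or more and 117 among those with 1 symbol. Directions turned, in mice left out singly, for *Slc4a1* (-0.077 to 0.018, above 0 without mouse 1 of WT RD or mouse 3 of App HFD) and *Aldh1a2* (-0.026 to 0.415, below 0 without mouse 3 of WT RD), neither of which the results describe. The median of the plaque-associated list ran from 0.13 (without mouse 1 of WT RD) to 0.22 when single mice were left out.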

Other observations

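Several unnamed clusters, paired with no gene symbol by the platform annotation, differed more than most named genes. A pair of clusters with identical values in all mice lay at 7.48 to 8.71 in wild-type and 9.20 to 9.56 in knock-in mice, a log2 difference of 1.43 (SE 0.205, adjusted p = 0.150) that was 1.38 on the RD and 1.48 on the HFD. A second such pair differed by 0.60 (adjusted p = 0.218), without overlap. In all, 1395 clusters share their values with another.

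Gene families read from the symbols stayed near 0. Cytosolic ribosomal proteins had a median log2 difference of -0.02 over 63 genes, NADH dehydrogenase subunits -0.01 over 33 and mitochondrial ribosomal proteins -0.01 over 71. Olfactory receptors, of which 1 of 1105 had a mean intensity of 100 or more, were lower for 65 and higher for 22 at an unadjusted p under 0.05.

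*Inmt*, a methyltransferase gene picked out after its values were seen, lay at 5.19 to 5.51 in wild-type and 4.78 to 5.12 in knock-in mice, with a log2 difference of -0.36 (SE 0.08, adjusted p = 0.493). The macrophage pore gene *Mpeg1*, also picked out in this way, had a difference of 0.33 (SE 0.08, adjusted p = 0.503) without overlap.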
